A study of Canis lupus familiaris with 4 samples.

Results

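The Wnt ligands, their receptors and the components of their pathway were followed in stem-like cancer cells from 2 mammary tumour lines of the dog. A gene was counted as a member where an array probe carried a symbol beginning with WNT or FZD and a digit, or one of 52 listed pathway symbols. Of the listed symbols, 43 were on the array, and 11 further WNT and FZD symbols were added by their names, which gave 54 members on 85 probes among 14494 gene symbols in all. Symbols for WNT3A, LRP5, DVL1, AXIN2, CTNNBIP1, TCF7, TCF7L1, NKD2 and VANGL2 were not found on the probes. The cells were Sca1+/EpCAM+/CD44+ cells, a rare fraction collected by flow sorting from the established lines CMT-U27 and P114, which are kept in RPMI-1640 medium with fetal bovine serum. By the labels they were taken at day 3. They were either co-cultured with tumour-associated macrophages or grown without them (single culture). Each line was hybridised to 2 arrays of 2 colours, each array carrying co-cultured cells in one dye and cells of the same line in single culture in the other, with the dyes exchanged between the arrays. The labels call the arrays biological replicates but name no separate cultures, so the p-values measure only the spread between these arrays, which may be technical.

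Wnt proteins are lipid-modified secreted ligands. In the canonical branch they bind a Frizzled receptor with the co-receptor LRP5 or LRP6, the destruction complex of APC, AXIN1, GSK3B and CSNK1A1 stops degrading beta-catenin (CTNNB1), and beta-catenin acts in the nucleus with TCF and LEF factors. In the non-canonical branches, ligands such as WNT5A signal through Frizzled, ROR and RYK receptors and the planar polarity proteins without beta-catenin. The roles given here are those described in human and mouse, where Wnt signals are known for their part in mammary gland growth and in the maintenance of its stem cells.

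Between 57.9 and 91.7% of the spots in a channel were well above background, the highest shares being those of P114 replicate 1, and no spot was saturated. All 4 arrays were on 1 slide. They were scanned at 2 times, 1 for each line, so scan and line cannot be told apart. The co-culture ratios of the 2 arrays of P114 had a Pearson correlation of -0.15 over the 28694 tested probes, and those of CMT-U27 of 0.05, so the replicate arrays of a line shared little of their pattern. A probe was tested where it was well above background in both arrays of at least 1 line and culture. By that filter 42 of the 54 members were tested, each by its brightest probe. The other 12 were the ligands WNT2, WNT6, WNT8B, WNT10B and WNT11, the receptors FZD3, FZD4 and LGR5, and the inhibitors DKK1, SFRP1, WIF1 and NKD1. Their single-culture levels lay between 6.81 and 7.72 on the log2 scale, and none was well above background in both single-culture channels of a line.

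In single culture the lines carried different Wnt ligands and receptors. P114 had more of the ligands WNT7A, WNT7B, WNT3, WNT5A and WNT5B, of PORCN, the enzyme that attaches the lipid to Wnt proteins, and of the WNT5A receptor ROR2. CMT-U27 had more RNF43, the ubiquitin ligase that removes Frizzled from the cell surface, by its brighter probe, more of the Frizzled receptors FZD1 and FZD5, more of the polarity proteins VANGL1 and DAAM1, and more of the nuclear factor LEF1. In all, 13 of the 42 tested members differed between the lines at an adjusted p under 0.05, 7 higher in P114 and 6 higher in CMT-U27. Over all 11244 tested genes 18.2% differed, 8.38% higher and 9.8% lower in P114. The channels of the lines did not overlap for 33 of the 42 members, 14 with P114 higher and 19 with CMT-U27 higher, where 74.1% of all genes did not overlap, 34.6% with P114 and 39.5% with CMT-U27 higher. The median difference of the members was -0.08 on the log2 scale and that of all genes was -0.03. Levels are log2 channel signals after normalisation, differences are P114 minus CMT-U27, and p-values are from limma's separate-channel fit with Benjamini-Hochberg adjustment over all tested probes. Because 50 units were added to each signal before the log, folds of dim probes are understated.

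**Figure D1:**
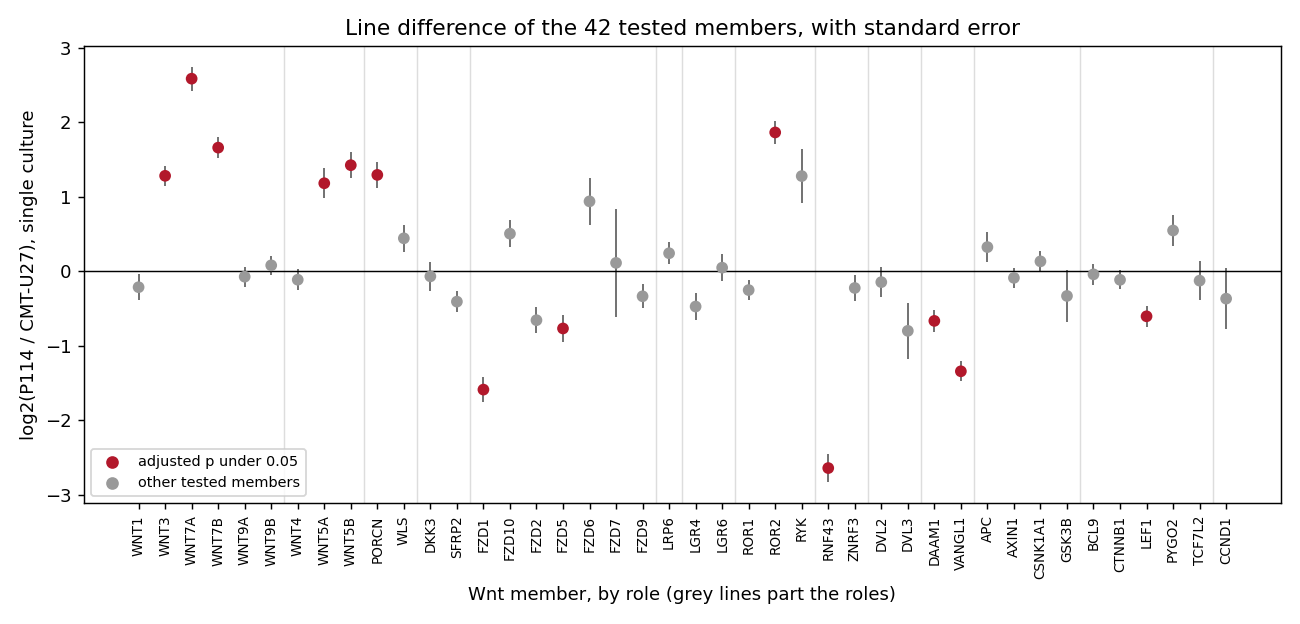
The log2 difference of P114 over CMT-U27 in single culture (y axis, with its standard error) is shown for each of the 42 tested members, grouped by role from ligands on the left to nuclear factors and a target on the right. The 13 members at an adjusted p under 0.05 are in red, and run from RNF43 at -2.64 to WNT7A at 2.58.

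Among the canonical ligands, 3 of 6 tested were higher in P114 past the threshold and none was lower past it. Of all genes 8.38% were higher and 9.8% lower past the threshold. WNT7A, a ligand that acts through beta-catenin in many epithelia, had levels of 9.61 and 9.65 on the P114 arrays and of 7.05 and 7.05 on the CMT-U27 arrays. The groups did not overlap, and in CMT-U27 the probe was well above background on 1 of 2 arrays, so its level there was close to the limit of the array. The probe met the filter through P114 alone, the line where it was high, and the size of the difference is uncertain. The difference was 2.58 ± 0.16 (SE), or 5.99-fold, with an adjusted p of 0.000749 in the limma fit. Over the alternative settings it ran from 2.26 to 6.50, the highest with the scanner software's processed signal, and it did not pass without either CMT-U27 array (adjusted p up to 0.0729 in the limma fit). WNT7B, its closest relative, had levels of 11.65 and 11.32 in P114 and of 9.70 and 9.95 in CMT-U27. It was therefore well measured in both lines, and was 3.16-fold higher in P114 (1.66 ± 0.14, SE, limma adjusted p = 0.00185). WNT3 had levels of 9.71 and 9.43 in P114 against 8.19 and 8.39 in CMT-U27, a 2.43-fold difference (limma adjusted p = 0.00344). The 3 canonical ligands WNT1, WNT9A and WNT9B differed by -0.21, -0.07 and 0.08 and did not pass the test. All 3 were dim, with levels from 6.89 to 7.38. WNT9B was not well above background in any CMT-U27 channel and met the filter through P114 co-culture alone.

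The non-canonical ligands WNT5A and WNT5B were also higher in P114. WNT5A, the best studied ligand of ROR2, had levels of 12.12 and 12.10 in P114 and of 10.77 and 11.09 in CMT-U27. The difference was 1.18 ± 0.20 (SE), or 2.27-fold, with an adjusted p of 0.0172 in the limma fit. A dimmer WNT5A probe gave 1.59 with an adjusted p of 0.186. WNT5B had levels of 12.19 and 11.92 in P114 and of 10.52 and 10.74 in CMT-U27, so that every P114 value was above every CMT-U27 value. Its difference was 1.42 ± 0.17 (SE), or 2.68-fold (limma adjusted p = 0.00561). WNT4 was near background and differed by -0.11. Both tested genes of ligand secretion had higher levels in P114: PORCN passed at 1.29, 2.45-fold (adjusted p = 0.00773), with an overlapping probe at 1.24, and WLS, the carrier that brings Wnt proteins to the cell surface, was 0.44 higher without passing (adjusted p = 0.175).

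The 4 ligands WNT7A, WNT7B, WNT5B and WNT3 belong to the same gene family. The 60-base probes that measured them are therefore shown with the longest run each has in common with a probe of another member. Capitals mark that run.
WNT7A: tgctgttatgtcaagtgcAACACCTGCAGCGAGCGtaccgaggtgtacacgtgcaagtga
WNT7B: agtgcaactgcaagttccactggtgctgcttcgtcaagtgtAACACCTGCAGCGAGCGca
WNT5B: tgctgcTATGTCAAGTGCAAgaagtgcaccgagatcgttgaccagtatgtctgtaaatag
WNT3: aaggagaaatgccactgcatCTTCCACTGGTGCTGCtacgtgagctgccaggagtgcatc
The WNT7A probe lies at chr20:4073996-4074055 on the minus strand and the WNT7B probe at chr10:20208134-20208193 on the plus strand, in CanFam3.1 coordinates of the array files. They share 17 bases, the longest run found between probes of different members. The WNT5B probe, at chr27:43676019-43676078 on the plus strand, shares 14 bases with the WNT7A probe. The WNT3 probe, at chr9:10081667-10081726 on the minus strand, shares 16 bases with a WNT1 probe. Over all 85 probes the median of the longest shared run was 9 bases. Hybridisation of one ligand's RNA to another's probe was not tested.

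**Figure D2:**
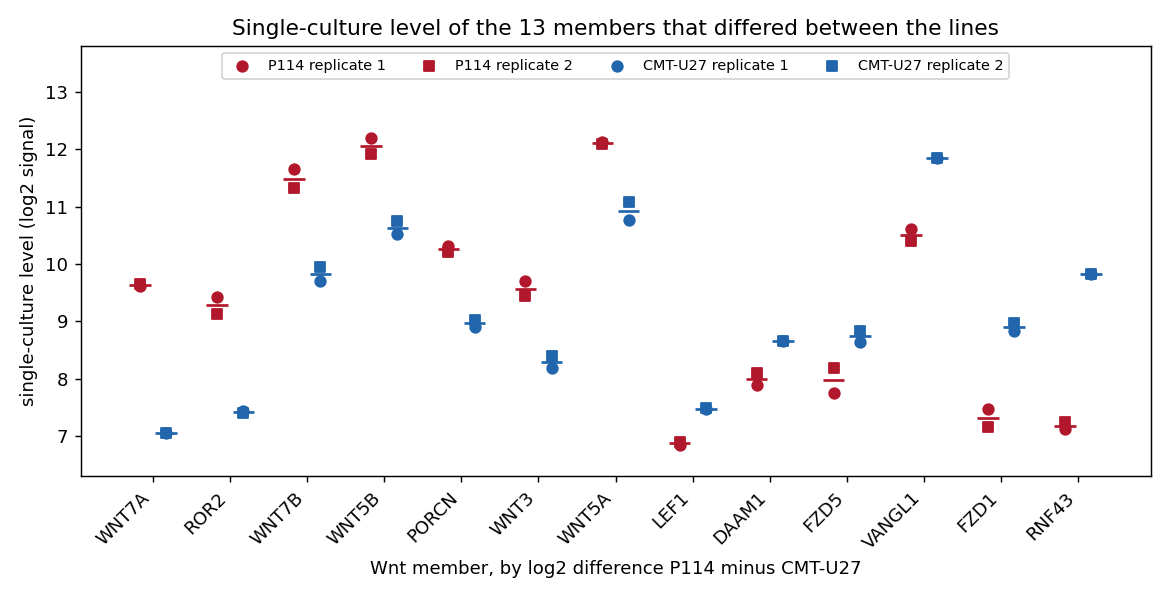
Single-culture levels (log2 signal, y axis) are shown for the 13 members that differed between the lines. Each point is 1 array, bars are means of 2 arrays, P114 is red and CMT-U27 blue. The channels of the lines did not overlap for any of the 13.

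Of 7 tested Frizzled genes none was higher in P114 past the threshold and 2 were lower past it, where 8.38 and 9.8% of all genes were. FZD1, a receptor of both branches, had levels of 7.46 and 7.16 in P114 and of 8.83 and 8.97 in CMT-U27, 3.01-fold higher in CMT-U27 (difference -1.59 ± 0.16, SE, limma adjusted p = 0.00332). FZD5 had levels of 7.75 and 8.19 in P114 and of 8.64 and 8.84 in CMT-U27, and differed by -0.77 (adjusted p = 0.0472), a call that held in 5 of 13 alternative settings (adjusted p up to 0.789, without CMT-U27 replicate 2). FZD2 differed by -0.66 (adjusted p = 0.0598) and FZD6 by 0.94 (adjusted p = 0.115). FZD7, a receptor known from mammary stem cells, had overlapping levels of 10.47 and 11.12 in P114 and of 10.59 and 10.78 in CMT-U27, while a dimmer probe gave -0.54 (adjusted p = 0.0412). FZD10 was not well above background in CMT-U27 and met the filter through P114 alone. It differed by 0.50 without passing (limma adjusted p = 0.132).

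Of the 3 non-canonical receptors 1 passed, higher in P114. ROR2, a receptor tyrosine kinase that binds WNT5A, had levels of 9.43 and 9.12 in P114 and of 7.43 and 7.40 in CMT-U27. P114 thus lay clearly above CMT-U27, by 1.86 ± 0.15 (SE) or 3.63-fold (limma adjusted p = 0.00158). RYK, another WNT5A receptor, had levels of 10.66 and 10.55 against 9.45 and 9.21, a difference of 1.28 whose adjusted p was 0.0707. ROR1 was near background and differed by -0.25. The co-receptor LRP6 differed by 0.24, the R-spondin receptor LGR4 by -0.47 and its relative LGR6 by 0.05, none past the threshold.

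RNF43 was measured by a pair of probes that differed in their result. The brighter one, which only 1 of the 2 annotation versions in the array files assigns to RNF43, by its description, had levels of 7.12 and 7.24 in P114 and of 9.82 and 9.83 in CMT-U27. The lines were far apart beside the spread of their arrays, at -2.64 ± 0.19 (SE), or 6.23-fold higher in CMT-U27, with an adjusted p of 0.00108 in the limma fit. The dimmer probe, named RNF43 in both versions, gave -0.44 and did not pass (adjusted p = 0.144). ZNRF3, the relative of RNF43 with the same known action on Frizzled, differed by -0.22. VANGL1, a membrane protein of planar polarity, had levels of 10.60 and 10.40 in P114 and of 11.84 and 11.85 in CMT-U27, 2.53-fold higher in CMT-U27 (adjusted p = 0.00306). DAAM1, a formin that links Dishevelled to actin, was 1.59-fold higher in CMT-U27 by its brightest probe (levels of 7.90 and 8.10 against 8.66 and 8.66, adjusted p = 0.0366), and its other probes gave -0.07 and -0.17 without passing. LEF1, a DNA-binding partner of beta-catenin, was well above background in CMT-U27, at 7.46 and 7.49, and on neither P114 array. It differed by -0.60, or 1.52-fold higher in CMT-U27 (limma adjusted p = 0.0389). Its background level in P114 leaves the size of that difference uncertain.

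No tested member of the destruction complex passed, and neither did beta-catenin. CTNNB1 had levels of 14.19 and 14.09 in P114 and of 14.15 and 14.36 in CMT-U27, which overlapped and differed by -0.11 (adjusted p = 0.611). APC, AXIN1, CSNK1A1 and GSK3B had differences between -0.33 and 0.32 and none passed. CCND1, the cyclin often described as a target of beta-catenin, had levels of 11.59 and 11.59 in P114 and of 11.80 and 12.11 in CMT-U27, a difference of -0.37 (adjusted p = 0.614). Of the 4 tested members known as feedback targets of the pathway, RNF43, ZNRF3, LEF1 and CCND1, all had lower means in P114. Of all genes 46.7% had higher means there. The 2 that passed were RNF43, by its brighter probe only, and LEF1, where 9.8% of all genes passed with lower levels in P114. The LEF1 call held in 6 of 12 alternative settings, and LEF1 met the filter through CMT-U27 alone.

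By branch, 4 of 18 tested canonical members passed, 3 of them higher in P114, with a median difference of 0.00. Of 8 tested non-canonical members 5 passed, WNT5A, WNT5B and ROR2 higher and VANGL1 and, by its brightest probe only, DAAM1 lower in P114. Of the 8, 4 had higher and 4 lower means in P114. Their median difference of 0.53 thus lies in the gap between WNT4 at -0.11 and WNT5A at 1.18. Over all genes 18.2% passed. The median size of the difference, without its sign, was 0.23 for canonical and 1.23 for non-canonical members, and 0.32 for all genes. Folds of dim probes are understated. Dim members were in both branches, such as WNT9B and LEF1 among the canonical and WNT4 and ROR1 among the non-canonical ones. The part of this in the medians was not tested. No test of the difference between the branches was made.

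The calls rested on few arrays. With 1 CMT-U27 array left out, 1 member passed, RNF43, whichever of the 2 was removed. Without P114 replicate 1, 7 members passed, and without P114 replicate 2, 12. All 13 members kept their sign in every alternative in which they could be tested. When arrays were centred on their median instead of by loess, the count stayed at 13, split into 10 higher and 3 lower in P114, while the median of all genes moved to 0.15, and over all probes the calls moved from 2044 higher and 2305 lower to 4045 higher and 982 lower. In the co-culture channels, which lie on the same arrays and so are no independent check, all 13 had the same sign and did not overlap between the lines. WNT7A differed there by 3.13 and RNF43 by -2.87.

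**Figure D3:**
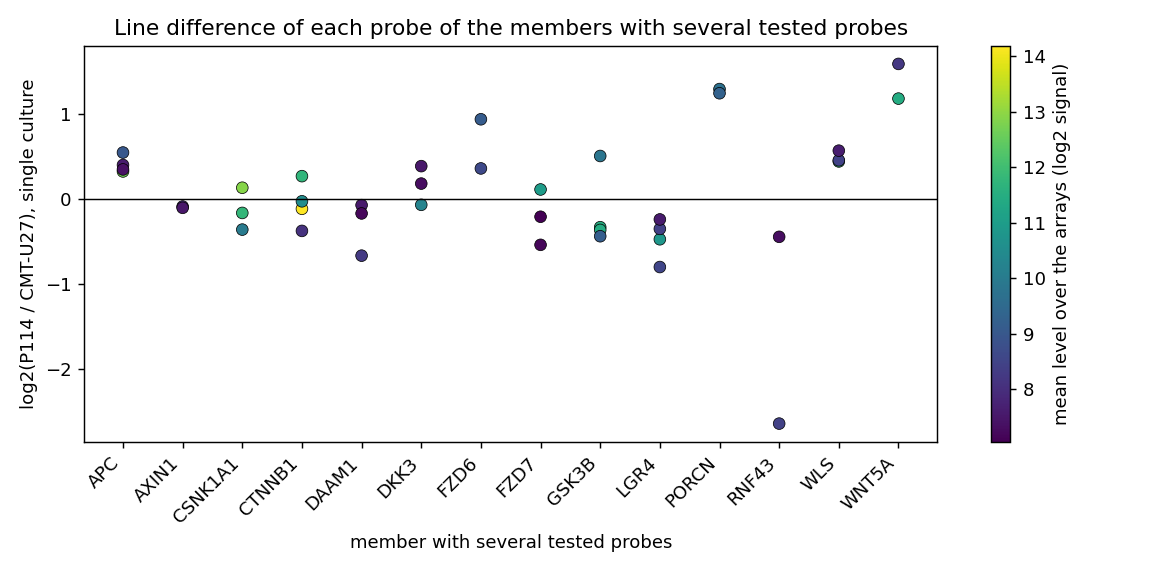
The log2 difference of P114 over CMT-U27 in single culture (y axis) is shown for each tested probe of the 14 members with several tested probes, coloured by the mean log2 level of the probe over the arrays. In 5 of the 14 members the probes had both signs, and RNF43 had probes at -2.64 and -0.44.

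The lines also differed in markers of cell state. All 8 tested epithelial markers had lower means in P114, with a median difference of -2.37. Of them 7 passed the test, where 9.8% of all genes passed with lower levels in P114. Among the 7 were EPCAM at -2.63 (limma adjusted p = 0.00088) and CDH1 at -2.44 (limma adjusted p = 0.00505). Of 12 tested mesenchymal markers 11 had higher means in P114 and 1 a lower mean, with a median difference of 1.59. Of them 6 passed, all higher in P114, where 8.38% of all genes passed with higher levels. VIM was among the 6, at 5.80 (limma adjusted p = 0.000543). CD44, a sort marker that is also described as a Wnt target, was 1.83 higher in P114 (adjusted p = 0.00144). The part of these differences in those of the Wnt members was not tested.

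Among 64 further genes of the pathway outside the membership rule, 52 were on the array and 45 were tested. Between the lines 11 passed, 4 higher and 7 lower in P114, which is 24.4% against 18.2% of all genes. Beside CD44, the smallest p-values were those of GPC4, a glypican that binds Wnt proteins at the cell surface, at -2.13 (adjusted p = 0.00203), and of APCDD1, a membrane inhibitor of Wnt signals, at -2.75 (adjusted p = 0.00404). Their levels were 6.89 and 6.85 against 9.10 and 8.89 for GPC4, and 7.04 and 6.93 against 9.83 and 9.63 for APCDD1, and in P114 both were well above background on 1 of 2 arrays, which leaves the size of these differences uncertain. Over the alternative settings GPC4 ran from -6.57 to -1.54 and APCDD1 from -6.21 to -2.11. Leaving out 1 CMT-U27 array ended the call of CD44 (adjusted p up to 0.322 in the limma fit, without replicate 2) and of GPC4 (0.0584, without replicate 1).

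After loess normalisation, co-culture with macrophages gave no called change in any Wnt member. In limma's fit of the within-array ratios, 0 of 28694 probes passed an adjusted p of 0.05 in P114, in CMT-U27, in the mean of both lines or in the difference between them, where 1757, 928, 1881 and 821 probes had an unadjusted p under 0.05. Ratios are log2 of co-culture over single culture, so that 1 is a doubling. In P114, 26 of 42 members had ratios above 0 and 16 below, with a median of 0.03 against 0.01 for all genes. In CMT-U27, 30 were above and 12 below, with a median of 0.03 for the members and for all genes. Of all genes 53.9% were above 0 in P114 and 71.3% in CMT-U27. The ratios ran from -0.15 for WNT5A to 0.54 for WNT7A in P114, and from -0.14 for WNT5A to 0.42 for FZD7 in CMT-U27, so 1 member exceeded 0.5 in P114 and 0 did in CMT-U27.

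Both arrays of P114 agreed in sign for 22 of 42 members, where 42.5% of all genes did, and those of CMT-U27 for 24 of 42, where 51.8% did. On all 4 arrays 9 members had 1 sign, where 14.6% of all genes did. These were AXIN1, FZD2, LRP6, PORCN, VANGL1, WNT7B, WNT9A and ZNRF3, above 0 with means from 0.02 to 0.17, and ROR2, below 0 at -0.04. Among them AXIN1, the scaffold of the destruction complex, had ratios of 0.12 and 0.13 in P114 and of 0.11 and 0.06 in CMT-U27, and PORCN of 0.20 and 0.04 and of 0.05 and 0.03. LRP6 had ratios of 0.02 and 0.14 and of 0.02 and 0.03.

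**Figure D4:**
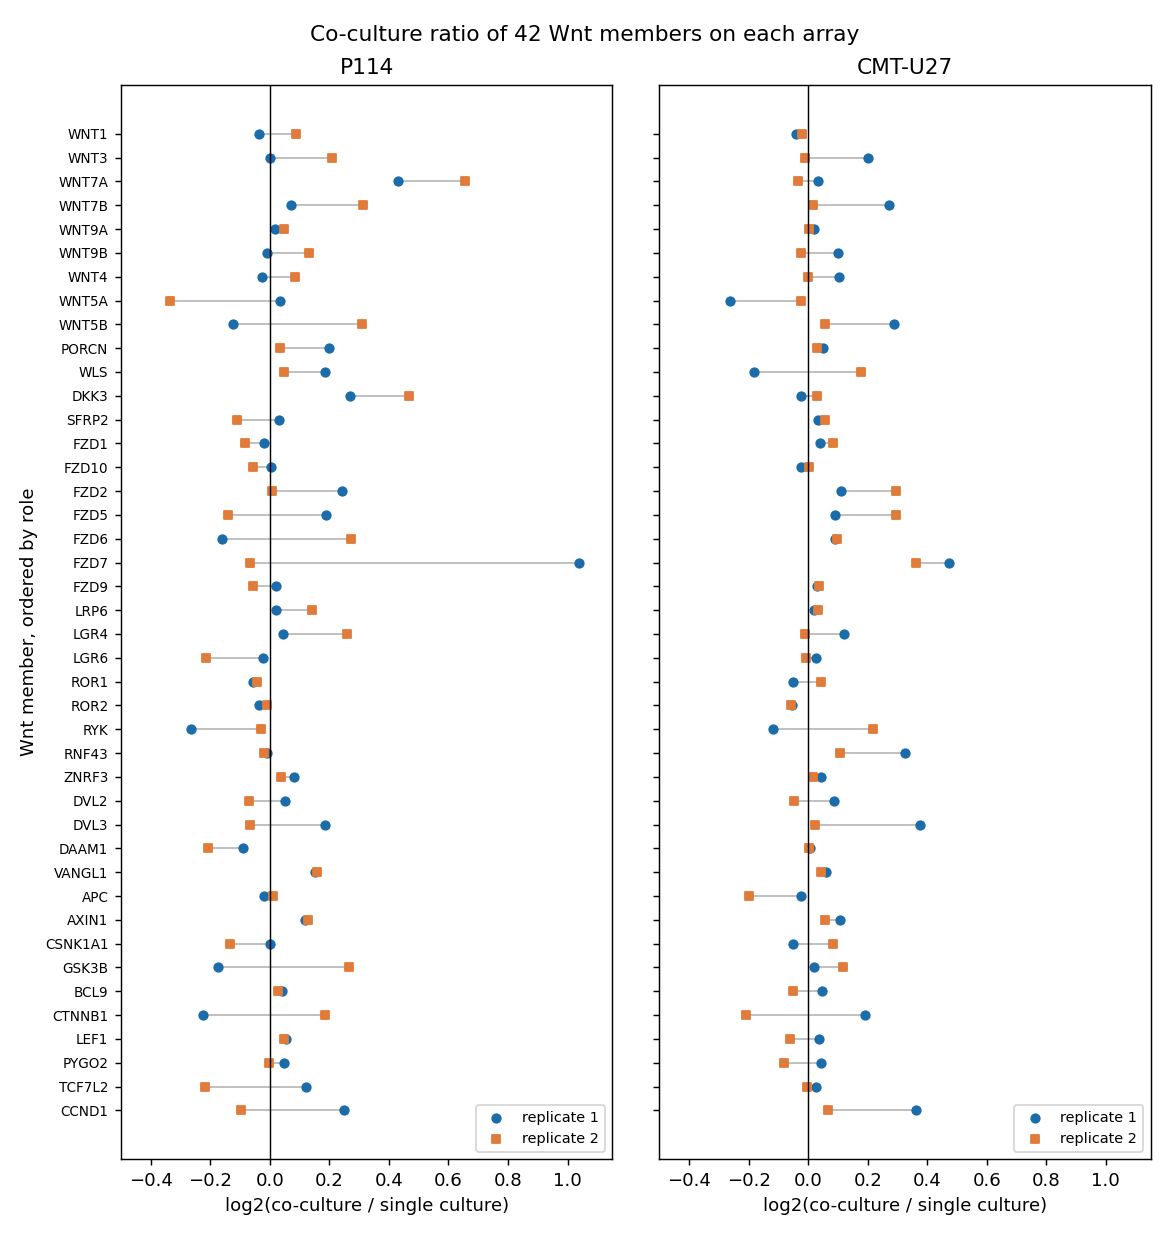
Log2 ratios of co-culture over single culture (x axis) are shown for the 42 tested members in P114 (left) and CMT-U27 (right), with 1 point per array and a grey line joining the 2 arrays. WNT7A and DKK3 stand to the right on both P114 arrays, and FZD7 stands to the right on 3 of 4 arrays.

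In P114, 3 members had an unadjusted p under 0.05, all with ratios above 0, where 6.6% of all genes reached it. WNT7A had ratios of 0.43 and 0.66 on the 2 arrays, or 1.46-fold, with an unadjusted p of 0.00171 and an adjusted p of 0.797 in the limma fit. DKK3, a divergent member of the Dickkopf family of secreted inhibitors, had ratios of 0.27 and 0.47 (unadjusted p = 0.0101). Both genes were thus above 0 on each P114 array, but the 2 other DKK3 probes, which were dimmer, gave -0.02 and -0.01. WNT7B had ratios of 0.07 and 0.31 (unadjusted p = 0.0387). Next came VANGL1 with 0.15 and 0.16, LGR4 with 0.04 and 0.26, and DAAM1 with -0.09 and -0.21.

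In CMT-U27, WNT7A had ratios of 0.03 and -0.03 and DKK3 of -0.03 and 0.03. The differences between the lines, CMT-U27 minus P114, were -0.54 for WNT7A and -0.37 for DKK3, with unadjusted p-values of 0.00576 and 0.0309 and adjusted p-values of 1.00 in the limma fit. The WNT7A difference depended on how the ratio was made: taken from the log ratio that the scanner software itself gives, its CMT-U27 value was 0.58 and the difference 0.01. The probe was well above background on 1 of 2 CMT-U27 arrays in each culture.

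The 3 members with an unadjusted p under 0.05 in CMT-U27 were FZD2, FZD5 and RNF43, where 4.04% of all genes reached it. FZD2, a receptor often paired with WNT5A, had ratios of 0.11 and 0.29 (unadjusted p = 0.034 in the limma fit). FZD5 had ratios of 0.09 and 0.29 and RNF43 of 0.33 and 0.11. In P114 the same members had ratios of 0.24 and 0.01, of 0.19 and -0.14, and of -0.01 and -0.02. The RNF43 values are of its brighter probe, and the dimmer one gave mean ratios of 0.04 in CMT-U27 and 0.05 in P114. WNT5B had ratios of 0.29 and 0.06 in CMT-U27 and WNT7B of 0.27 and 0.02.

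FZD7, CTNNB1, CCND1, WNT5A and LEF1 each had ratios of both signs over the 4 arrays. FZD7 had ratios of 1.04 and -0.07 in P114 and of 0.47 and 0.36 in CMT-U27. Its largest single value therefore had no match on the other array of that line, and its 2 dimmer probes gave mean ratios from -0.03 to 0.05 in either line. CTNNB1 had ratios of -0.23 and 0.18 in P114 and of 0.19 and -0.21 in CMT-U27. CCND1 had ratios of 0.25 and -0.10 in P114 and of 0.36 and 0.07 in CMT-U27. WNT5A had ratios of 0.03 and -0.34 in P114 and of -0.26 and -0.02 in CMT-U27, below 0 on 3 of 4 arrays, with a mean over both lines of -0.15 (unadjusted p = 0.038 in the limma fit). The dimmer WNT5A probe gave -0.002 in P114, -0.02 in CMT-U27 and a mean over both lines of -0.01. LEF1 and ROR2 stayed between -0.06 and 0.05 on every array.

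Over both lines together 5 members had an unadjusted p under 0.05, where 7.42% of all genes did: WNT7A (0.27), DKK3 (0.19), WNT7B (0.17) and FZD2 (0.16) above 0 and WNT5A below it. For the difference between the lines 2 did, WNT7A and DKK3, where 3.45% of all genes did. These values are of the brightest probes. The dimmer probes of DKK3 and WNT5A gave means over both lines from -0.01 to -0.004.

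By branch, the 18 tested canonical members had median ratios of 0.04 in P114 and 0.01 in CMT-U27, and the 8 non-canonical members had medians of -0.04 and 0.03. All 6 tested canonical ligands had mean ratios above 0 in P114 and 4 of 6 in CMT-U27, where 53.9 and 71.3% of all genes did, and the 3 non-canonical receptors had ratios below 0 on both P114 arrays, at -0.02 for ROR2, -0.05 for ROR1 and -0.15 for RYK. None of these passed the test. Of the 45 other pathway genes 3 had an unadjusted p under 0.05 in P114 and 1 in CMT-U27. They were MYC, a proto-oncogene and Wnt target, with ratios of -0.60 and -0.31, the Groucho-type corepressor TLE1 with 0.37 and 0.02 and CD44 with 0.41 and -0.01 in P114, and PTK7, a polarity co-receptor, with 0.03 and -0.82 in CMT-U27.

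Loess centres each array at every signal level, so the ratios are relative to the bulk of probes of like signal. Any trend of the ratio with signal is thereby removed. Centring on the median also centres each array but leaves such a trend in place. It gave all genes a median of 0.23 in P114 and of 0.95 in CMT-U27. Those of the members moved to 0.24 and 0.89, and 5 and 17343 probes passed. The members thus moved with all genes under that setting, in which 9 of the 12 members given with values per array in CMT-U27 passed the test. CTNNB1 at 1.54 and WNT5A at 1.16 were among the 9, both with their signs turned. In P114 0 of 12 passed. What the trend with signal came from was not tested. With loess kept, without P114 replicate 2, and with no dye term, 64 probes passed in P114, and without CMT-U27 replicate 1, 17 passed in CMT-U27. None of the members given with values per array in these lines was among those 64 and 17 probes.

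Macrophage markers were read in the same channels. All 16 were on the array and 4 were tested. In CMT-U27, 9 of the 16 were not well above background in any channel, PTPRC and CSF1R among them, and 3 were above it in both co-culture channels. Their mean ratio was -0.01 and -0.03 on the P114 arrays and 0.05 and 0.03 on the CMT-U27 arrays. The sum of their log2 levels ran from 114.9 to 120.0 in single culture and from 114.5 to 119.8 in co-culture over the 4 arrays. CD74, which epithelial cells can also express, had ratios of 0.62 and 0.36 in CMT-U27 (unadjusted p = 0.00721 in the limma fit). The part of macrophage RNA in the ratios of the Wnt members was not tested. Because bulk RNA was measured, fewer cells of a kind and less RNA per cell cannot be told apart.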

How the data were processed

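The arrays were 2-colour Agilent dog arrays (design 021193) of 45220 spots, 1417 of them controls. Per the file headers the deposited intensity values were extracted with Feature Extraction 10.10.1.1 (10.7.3.1 per the submitters' processing notes). The log10 ratios in the scanner files are red over green processed signals, per the file headers, and the deposited value table held the same log10 ratios, with a median of 0 in each column, its scale and direction being taken from that match. The labels name a labelling kit for miRNA beside total RNA. Members, lists and roles were chosen with earlier results of these data known.

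Mean signals were background-corrected by normexp with an offset of 50 and normalised by loess in limma 3.58.1 (R 4.3.3). Spots marked non-uniform or as population outliers were left out, and spots of a probe averaged. Ratios were turned to co-culture over single culture by the channel labels. All 4 arrays were fitted with 1 coefficient per line and a dye term (1 residual and 2.76 prior degrees of freedom). For the lines, channels were scaled by Aquantile and fitted with an intraspot correlation of 0.94 (3 residual and 2.69 prior degrees of freedom). Calls used a Benjamini-Hochberg adjusted p under 0.05 over 28694 probes. The number of arrays limits the precision. Both fits were run on simulated data with planted changes larger than any co-culture ratio of a member. Changes of the size seen in co-culture were not simulated. A gene was shown by its brightest tested probe. Per-array values are given for the 6 members with the smallest p and like signs in each co-culture comparison, the called members of the line comparison, 11 preset genes where tested, and 3 other pathway genes per comparison. Alternatives were other background, scaling, filter, dye and signal settings and leaving out each array.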

Additional observations from a re-analysis of the deposited data

Results flagged for a closer look

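DAAM1, FZD1 and RNF43 had co-culture ratios of one sign on both P114 arrays and of the opposite sign on both CMT-U27 arrays, where 8.39% of all genes did. CMT-U27 minus P114, the difference was 0.15 for DAAM1, 0.12 for FZD1 and 0.23 for RNF43. RNF43 had ratios of -0.01 and -0.02 in P114 and of 0.33 and 0.11 in CMT-U27, FZD1 of -0.02 and -0.08 against 0.04 and 0.08, and DAAM1 of -0.09 and -0.21 against 0.01 and 0.00. In limma's test of the difference the unadjusted p-values were 0.0991 for RNF43, 0.178 for DAAM1 and 0.259 for FZD1, each with an adjusted p of 1.00. These values are of the brightest probes, and the other probes of RNF43 and DAAM1 did not repeat the contrast. The dimmer RNF43 probe gave 0.05 in P114 and 0.04 in CMT-U27, a difference of -0.01. The dimmer DAAM1 probes gave differences of -0.0001 and 0.016.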

How the results depend on the processing

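No paired analysis was possible because the labels carry no replicate numbers that tie arrays of the lines to each other; co-culture and single culture were already compared within each array. Fits without 1 array had no dye term, and those of the line comparison used the intraspot correlation of all 4 arrays, which could not be estimated on 3; the lone array of a line is then assumed to vary like the others. Where a value moved, the cause was not tested unless stated. Between the lines, leaving out 1 array gave 259 to 4490 called probes (4349 with all arrays) and 1 to 12 called members. Without the dye term 9379 probes and 20 members passed, and with single-culture channels as 1-colour data 10892 and 23, both with more residual freedom or another error model by construction. The members' median was 0.075 with median centring, -0.0010 with no filter on dim probes and 0.034 with the scanner software's processed signal. For co-culture, 0 to 64 probes passed in P114 on leaving out 1 array, 0 to 17 in CMT-U27, 0 to 61 in the mean and 0 to 61 in the difference. With median centring 5, 17343, 16518 and 12449 probes passed. With no background correction 12 passed in CMT-U27 and 1 in the difference, and 1 passed in CMT-U27 among probes above background in all channels.

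The members' median ratio in P114 was 0.024 with no background correction, 0.023 with no filter, 0.047 with the scanner software's log ratio or the series value table, 0.24 with median centring, 0.040 as a mean over probes and 0.018 to 0.033 without 1 array. In CMT-U27 it was 0.89 with median centring. For the mean of the lines it was 0.55 with median centring, 0.016 with no filter, 0.054 among probes above background in all channels and 0.023 to 0.047 without 1 array. For the difference it was 0.49 with median centring, 0.023 with no filter and -0.035 to 0.012 without 1 array.

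Signs turned with median centring in P114 for WNT5A (0.27), LEF1 (-0.20), CTNNB1 (0.42) and ROR2 (0.30), in CMT-U27 for WNT5A (1.16), LEF1 (0.11), CTNNB1 (1.54) and PTK7 (1.30), in the difference for VANGL1 (0.89) and PORCN (0.50), and between the lines for CTNNB1 (0.44) and CCND1 (0.13). In CMT-U27, WNT7A was 0.054 and CTNNB1 0.059 with no background correction, and 0.58 and 0.086 with the software's log ratio or the series table, where the WNT7A difference was 0.00801. Leaving out 1 array turned signs in P114 for CTNNB1 (-0.23 to 0.18), CCND1 (-0.097 to 0.25), FZD7 (-0.065 to 1.04), CD44 (-0.014 to 0.41) and WNT5A (-0.34 to 0.034). It did so in CMT-U27 for WNT7A (-0.033 to 0.031), LEF1 (-0.062 to 0.037), CTNNB1 (-0.21 to 0.19) and PTK7 (-0.82 to 0.034), in the difference for PORCN (-0.16 to 0.0039) and FZD2 (-0.041 to 0.20), and between the lines for FZD7 (-0.21 to 0.44). Low signal over background limits the dim members, WNT7A in CMT-U27 and LEF1 in P114 among them.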

Other observations

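DVL1, a Dishevelled protein that relays signals from Frizzled receptors, was outside the membership rule because its probes name the gene only in words. It was singled out after its values were seen, among 10 such probes for 8 genes. Its 2 brighter probes had co-culture ratios of -0.13 and -0.32, and of -0.15 and -0.32, in P114, and of 0.25 and 0.08, and of 0.14 and 0.13, in CMT-U27. The difference between the lines was 0.39 and 0.37, with unadjusted p-values of 0.0423 and 0.0234 and adjusted p-values of 1.00 in the limma fit. The remaining, dimmer probe had ratios of -0.01 and -0.01 in P114 and of 0.07 and -0.06 in CMT-U27, a difference of 0.01 (unadjusted p = 0.889 in the limma fit). In single culture the 2 probes were 0.87 and 0.83 higher in P114, with adjusted p-values of 0.0773 and 0.0297, and the dimmer probe gave 0.14.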
